A study of Homo sapiens with 2 samples.

Results

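The genes described here encode enzymes of mitochondrial and peroxisomal fatty acid oxidation, the acyl-CoA synthetases and carnitine shuttle that feed them, the peroxins that build peroxisomes, and PPARA, a nuclear receptor. They were chosen by symbol from a list of 32 names, and all 32 were found among the 16424 genes of the deposited values. CAGE (cap analysis of gene expression) reads a short tag at the 5′ end of each capped RNA, here from PLC/PRF/5, an established human hepatoma line. The non-treated group (0 µg/ml) and the M2BPGi-treated group (3 µg/ml, 6 h) each gave 1 library, and the labels name no other agent. M2BPGi is the glycan isomer of Mac-2-binding protein that binds a Wisteria lectin, and the comparison asks which genes differ in hepatoma cells exposed to it. With 1 library per condition, no difference has a replicate check, and the groups could not be compared by a test. The values are CPM, the tags of a gene scaled to the same total in each library. The libraries held 24040209 tags from non-treated and 24862941 tags from M2BPGi-treated cells, so that 1 tag was worth 0.0416 and 0.0402 CPM.

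Fatty acids are activated to acyl-CoA, carried into mitochondria by the carnitine shuttle and shortened there by a spiral of dehydrogenation, hydration, dehydrogenation and thiolysis. Peroxisomes shorten very long and branched chains, and catalase removes the hydrogen peroxide that forms. In the liver this pathway supplies energy during fasting, and PPARA is known to control many of its genes.

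CAGE tags mark transcript starts, so annotated start regions are printed, although the values per gene do not say which start the tags came from. They are shown for the pair HADHA and HADHB, whose starts lie back to back, and for some genes picked after their values were seen. Of these CPT1A, SLC25A20 and ACADVL were lower and ECI1 and ECI2 higher, while ACSL3, which was lower than ACADVL by log2 ratio, is not printed. The sequences are RefSeq promoters of build GRCh38.p14, from 250 bases before to 50 bases after a start, and the start farthest upstream was taken where several were listed. Capitals mark the GC box GGGCGG, the motif CCAAT, the ETS site CCGGAAG and the TATA box, written TATAAA. A match on the other strand reads CCGCCC for the GC box, ATTGG for the second motif, CTTCCGG for the ETS site and TTTATA for the last one. HADHA is at chr2:26244583-26244882 on the minus strand and HADHB at chr2:26244689-26244988 on the plus strand. CPT1A is at chr11:68844228-68844527 on the minus strand, SLC25A20 at chr3:48898833-48899132 on the minus strand and ACADVL at chr17:7216875-7217174 on the plus strand. ECI1 is at chr16:2251538-2251837 on the minus strand and ECI2 at chr6:4135526-4135825 on the minus strand.
HADHA: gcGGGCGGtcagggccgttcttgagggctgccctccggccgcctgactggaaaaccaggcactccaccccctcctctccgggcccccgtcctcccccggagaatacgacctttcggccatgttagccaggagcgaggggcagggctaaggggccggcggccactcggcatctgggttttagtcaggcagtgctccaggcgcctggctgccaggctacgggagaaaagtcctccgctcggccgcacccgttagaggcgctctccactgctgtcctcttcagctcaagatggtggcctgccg
HADHB: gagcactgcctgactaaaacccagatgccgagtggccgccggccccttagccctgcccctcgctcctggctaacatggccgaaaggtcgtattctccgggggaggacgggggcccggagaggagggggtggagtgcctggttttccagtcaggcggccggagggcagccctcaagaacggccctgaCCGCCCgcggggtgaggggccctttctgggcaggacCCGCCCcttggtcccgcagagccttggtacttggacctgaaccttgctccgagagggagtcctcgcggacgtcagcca
CPT1A: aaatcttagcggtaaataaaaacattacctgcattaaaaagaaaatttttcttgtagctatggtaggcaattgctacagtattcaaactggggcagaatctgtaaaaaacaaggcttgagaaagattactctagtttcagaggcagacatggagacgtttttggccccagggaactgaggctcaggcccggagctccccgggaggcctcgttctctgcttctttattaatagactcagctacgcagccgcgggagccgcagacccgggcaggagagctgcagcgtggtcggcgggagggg
SLC25A20: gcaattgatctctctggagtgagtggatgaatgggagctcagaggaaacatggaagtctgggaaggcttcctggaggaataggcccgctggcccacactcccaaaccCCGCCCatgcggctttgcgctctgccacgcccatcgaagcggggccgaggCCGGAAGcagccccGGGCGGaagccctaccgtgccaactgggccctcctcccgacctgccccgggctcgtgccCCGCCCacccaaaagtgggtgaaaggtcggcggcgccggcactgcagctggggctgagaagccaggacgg
ACADVL: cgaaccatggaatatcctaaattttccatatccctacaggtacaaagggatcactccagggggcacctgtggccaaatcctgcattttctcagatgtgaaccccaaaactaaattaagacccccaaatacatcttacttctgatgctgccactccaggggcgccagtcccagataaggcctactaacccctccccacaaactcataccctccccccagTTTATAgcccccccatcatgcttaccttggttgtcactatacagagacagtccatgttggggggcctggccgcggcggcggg
ECI1: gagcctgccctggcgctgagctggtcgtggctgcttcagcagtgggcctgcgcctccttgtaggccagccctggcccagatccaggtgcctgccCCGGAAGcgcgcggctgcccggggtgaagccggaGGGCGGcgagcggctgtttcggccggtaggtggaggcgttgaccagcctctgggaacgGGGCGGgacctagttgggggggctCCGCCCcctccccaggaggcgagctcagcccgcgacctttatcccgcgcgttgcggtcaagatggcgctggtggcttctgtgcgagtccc
ECI2: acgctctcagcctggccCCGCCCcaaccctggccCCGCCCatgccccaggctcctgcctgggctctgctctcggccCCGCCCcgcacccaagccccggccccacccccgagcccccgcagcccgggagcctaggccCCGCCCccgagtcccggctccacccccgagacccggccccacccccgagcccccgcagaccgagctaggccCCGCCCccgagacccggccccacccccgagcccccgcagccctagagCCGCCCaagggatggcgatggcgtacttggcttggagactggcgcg

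The start sites of HADHA and HADHB in these windows were 307 bases apart, and the windows share 194 bases. GGGCGG was found 6 times in the ECI2 window, 3 times in each of the ECI1 and SLC25A20 windows and 0 times in those printed for CPT1A and ACADVL. The ACADVL window that is not printed does hold GGGCGG, and so does that of ACSL3. Whether the motif goes with the ratio was not tested. The CPT1A window held none of the marked motifs, and that of ACADVL held TATAAA on the opposite strand. Windows were matched for 26 of the 32 genes, 38 windows in all, and ACAA1, EHHADH, ETFDH, DECR1, PEX2 and PEX14 had no entry. GGGCGG was in 73.7% of the 38 windows, in 67.4% of the windows of all genes compared here and in 45% of all 35116 windows. CCGGAAG was in 21.1%, against 18% and 10.3%, and CCAAT in 26.3%, against 35.2% and 34.6%. AGGTCA, which reads TGACCT on the other strand and is the core hexamer of nuclear receptor sites, was in 0 of the 38 windows, in 10.1% of the windows of genes compared and in 13.8% of all windows. The same hexamer repeated after 1 base, the arrangement known for PPARA, was in 0 of the 38, against 0.0314% and 0.0228%. CACGTG (E-box) and TGACGTCA (cyclic AMP response element) were in 0 of the 38 windows as well. Of the windows of genes compared 9.41% and 2.93% held them, and of all windows 7.26% and 1.85%. Both strands were searched, and a missing match says only that these letters are not in these 300 bases.

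The cell line label was checked against marker genes. All 10 hepatocyte markers were listed, with FGB, the fibrinogen beta chain, as the most abundant at 950.03 CPM without and 623 CPM with M2BPGi. ALB was low for a hepatocyte gene, with 8.82 and 7.04 CPM. Summed over the 10 genes, the level was 2402 and 1726 CPM, and 7 of the 10 had a lower value in M2BPGi-treated cells. Of other cell types, 0 of 5 endothelial markers and 2 of 8 stellate cell and fibroblast markers were listed, the latter with COL3A1 at 4.53 and 3.42 CPM. Of 8 leukocyte and Kupffer cell markers 3 were listed. PTPRC and CSF1R were at 0 in both libraries, and CD68, a lysosomal protein, had 21.2 and 20.5 CPM.

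The 32 genes together took 2016 CPM without and 2076 CPM with M2BPGi. A CAGE tag is counted at the start of a transcript, so levels were compared between genes without a correction for length. By mean CPM the most abundant genes were ACADVL, HADHA, ACSL3 and ETFA, which act at different steps from activation to electron transfer. In non-treated cells 95% of the genes compared were at or below ACADVL. The lowest was ACSL1 with 0.58 and 1.21 CPM. In M2BPGi-treated cells the highest was ETFA with 230.2 CPM. The levels thus differed far more between genes than between the libraries.

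**Figure D1:**
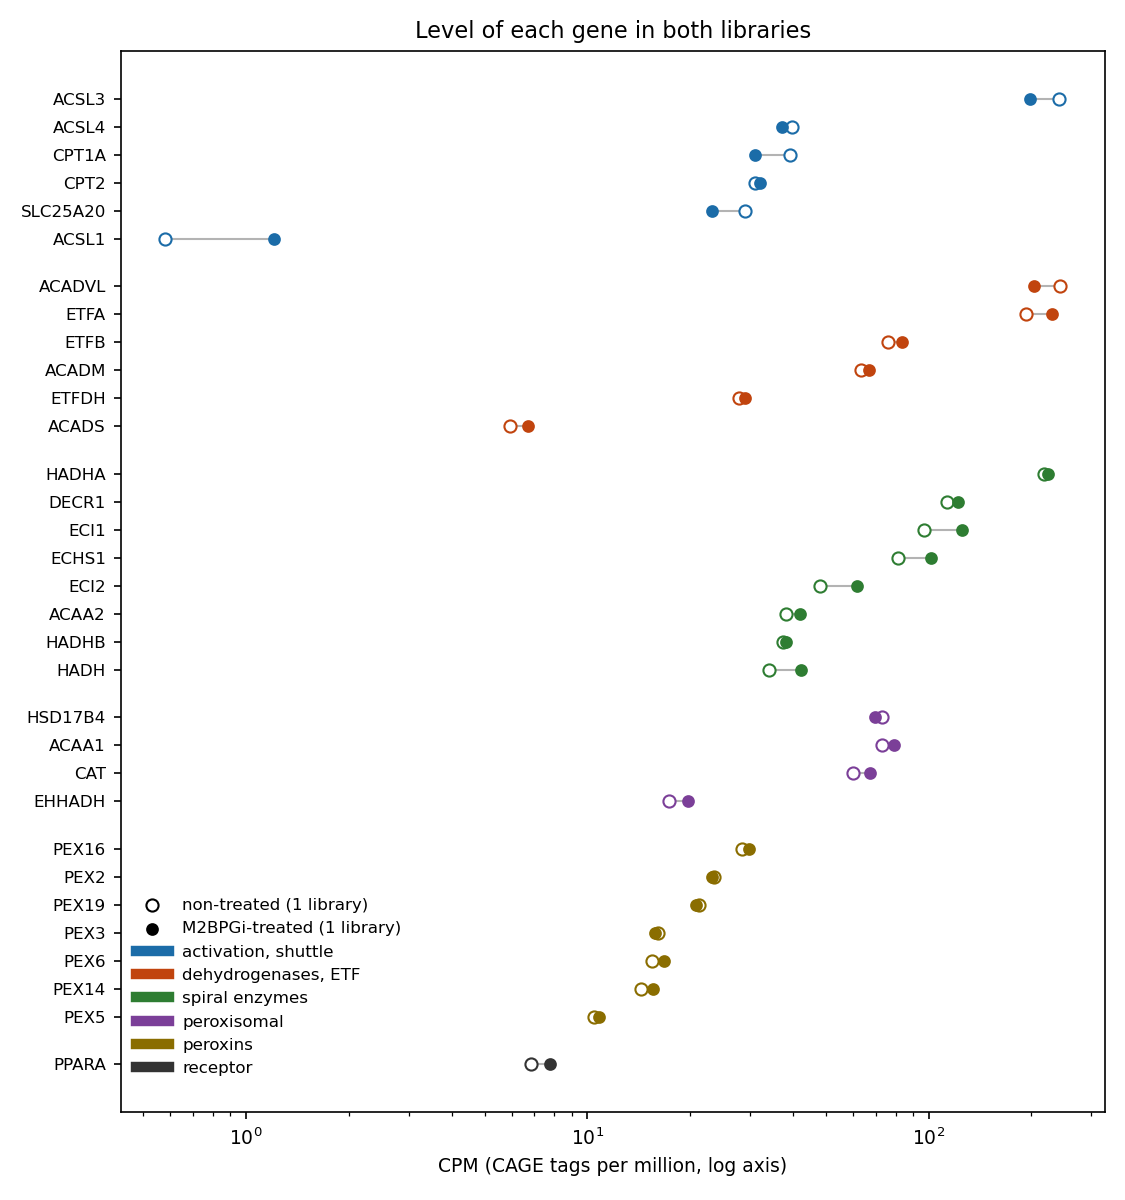
CPM of each of the 32 genes on a log axis, grouped by role, with non-treated cells as open and M2BPGi-treated cells as filled circles (1 library each). The circles of a gene lie close together, with ACADVL highest in non-treated cells (243 CPM), ETFA highest in M2BPGi-treated cells (230.2 CPM) and ACSL1 lowest in both (0.58 and 1.21 CPM).

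For each gene, 1 CPM was added to both values and the log2 of treated over non-treated was taken, which makes differences of low genes look smaller. The 13724 genes whose mean was 1 CPM or more were compared. Of the 32 genes 31 met this filter, and ACSL1 did not. Their median log2 ratio was 0.07, and that of all genes compared was -0.05. The individual ratios ranged from -0.33 to 0.36. None of the 31 genes was at least 1.5-fold higher, a size reached by 1.60% of all genes compared, and 0 were at least 1.5-fold lower, against 4.04%. These background shares are small, so a count of 0 among 31 is not particular to the list. Over all genes compared, 219 were at least 1.5-fold higher and 555 lower, and these numbers became 302 and 425 when the values were rescaled to bring the median of all genes compared to 0. Of the 31 genes, 9 had a log2 ratio below 0, against 57.0% of all genes compared. After the same rescaling there were 6, since PEX2, PEX3 and PEX19 passed to the other side of 0. Fewer transcripts per cell and fewer cells with the transcript cannot be told apart in bulk RNA.

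The counting error of each ratio was given by a 95% Clopper-Pearson interval of the tag ratio without the added CPM. It covers counting error only. The interval lay above 0 for 10 of the 31 genes, against 22.8% of all genes compared, and below 0 for 4, against 31.5%. The remaining 17 had intervals that held 0, and their differences were not detectable at this depth. These counts are for the values as deposited, and rescaling shifts every ratio by about 0.05. The lower limits of EHHADH (0.00), HADHA (-0.02) and ACADM (-0.03) lie closer to 0 than that shift. ECI1 and ECI2 were at least 25% higher, against 9.04% of all genes compared, and CPT1A was at least 20% lower, against 18.4%. A near-identical copy is another gene that shares 100 nt or more with the start of a transcript at 95% identity or more. None of the 32 genes had one in the GENCODE transcripts, so tags shared with such a copy are not a limit found for these values. The listed pseudogenes SLC25A20P1 and HADHAP1 were at 0 in both libraries.

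Fatty acid activation and the carnitine shuttle had the lowest median of the roles. Of the 5 genes compared 4 were below 0, against 57.0% of all genes compared. Their median log2 ratio was -0.28, which became -0.19 with ACSL1 when no filter was used. The summed level of the 6 genes was 381 CPM without and 323 CPM with M2BPGi. CPT1A (ENSG00000110090), which makes acylcarnitine at the outer mitochondrial membrane and is the known control point of the pathway, had 39.2 CPM without and 31.0 CPM with M2BPGi. Its log2 ratio was -0.33, the lowest of the 31, with an interval of -0.48 to -0.20. SLC25A20 (ENSG00000178537), the translocase that carries acylcarnitine across the inner membrane, had 28.95 and 23.2 CPM, a log2 ratio of -0.31 (interval -0.48 to -0.16). These neighbouring steps of the shuttle were both lower, and their intervals overlap. CPT2, which returns the chain to coenzyme A inside the mitochondrion, had 31.0 and 31.98 CPM, and its interval of -0.10 to 0.19 held 0. The level of CPT1A was 1.26 times that of CPT2 in non-treated cells (interval 1.15 to 1.39) and 0.97 times in M2BPGi-treated cells (interval 0.877 to 1.07). In the same cells CPT1B, the muscle form of CPT1A, had 0.33 and 0.32 CPM, and CPT1A was the main form listed in both libraries.

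The acyl-CoA synthetases differed more in level than between the libraries. ACSL3 (ENSG00000123983), a synthetase of the endoplasmic reticulum and lipid droplets, had 242 CPM without and 199 CPM with M2BPGi, a log2 ratio of -0.28 (interval -0.34 to -0.23). ACSL4, which prefers arachidonic acid, had 39.9 and 37.2 CPM (interval -0.23 to 0.03), so its interval held 0. The level of ACSL3 was 6.06 times that of ACSL4 in non-treated and 5.34 times in M2BPGi-treated cells. ACSL1, known as a main synthetase of liver tissue, was counted with 14 and 30 tags. Its log2 ratio was 0.48, the highest of the 32, with an interval of 0.09 to 2.08. It was the only gene of the list below the filter and entered counts and medians only where no filter was used.

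**Figure D2:**
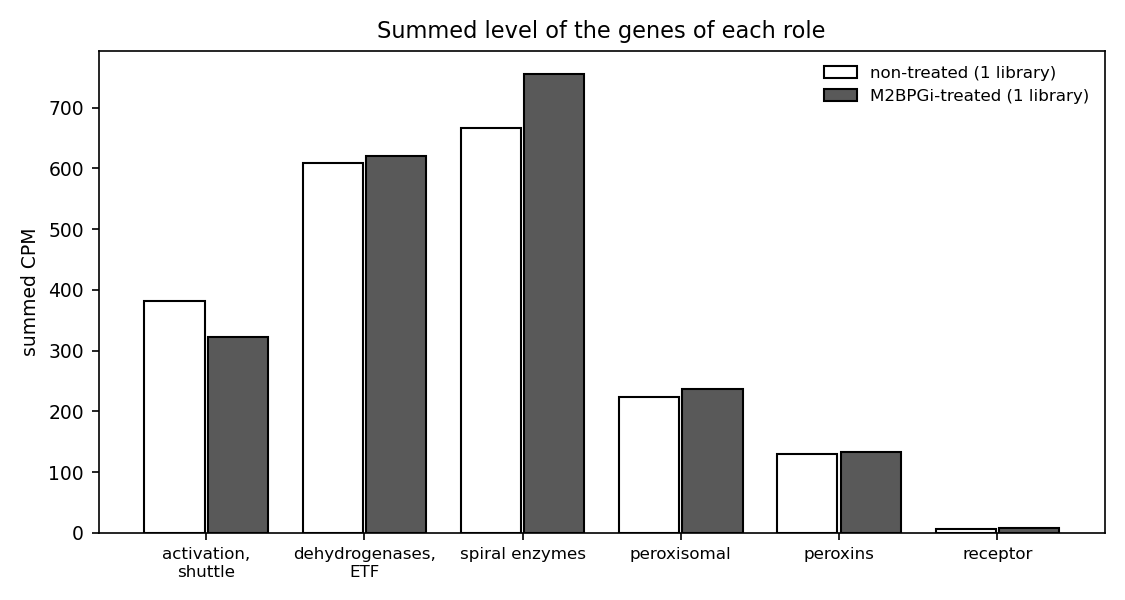
Summed CPM of the genes of each role in non-treated (open bars) and M2BPGi-treated cells (filled bars), 1 library each. The activation and shuttle genes have 381 and 323 CPM and the enzymes of the later mitochondrial steps 667 and 756 CPM, while the other roles differed by smaller amounts.

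The acyl-CoA dehydrogenases, which open each round of the spiral, and the electron transfer flavoprotein that takes up their electrons did not go one way. Of the 6 genes 5 were above 0, with a median log2 ratio of 0.11, while 57.0% of all genes compared were below 0. ACADVL (ENSG00000072778), the enzyme for very long chains, had 243 CPM without and 204 CPM with M2BPGi. Its log2 ratio was -0.25, with an interval of -0.30 to -0.19, and it was the only gene of this role below 0. ACADM, for medium chains, had 63.5 and 66.7 CPM, and ACADS, for short chains, had 5.95 and 6.68 CPM, both with intervals that held 0. The order of levels was therefore the order of chain length in both libraries, and ACADVL stood at 3.82 times the level of ACADM in non-treated and 3.06 times in M2BPGi-treated cells. ETFA, the alpha subunit of the flavoprotein, had 193 and 230.2 CPM, a log2 ratio of 0.25 (interval 0.20 to 0.31). ETFB, its beta subunit, had 75.8 and 83.8 CPM, a log2 ratio of 0.14 (interval 0.05 to 0.24). The subunits were both higher in M2BPGi-treated cells, and their levels were unequal, with ETFA at 2.54 times ETFB in non-treated and 2.75 times in M2BPGi-treated cells. ETFDH, which passes the electrons on to ubiquinone, had 27.8 and 29.04 CPM (interval -0.09 to 0.22).

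All 8 genes of the later mitochondrial steps had a log2 ratio above 0, with a median of 0.22. Their summed level was 667 CPM without and 756 CPM with M2BPGi, and 6 of the 8 intervals lay above 0, against 22.8% of all genes compared. Rescaling and TMM factors (trimmed mean of M values) raise every ratio by about 0.05. These scalings could therefore not bring any of the 8 below 0 and are no check of this. A log2 ratio below 0, seen in 0 of the 8, was seen in 57.0% of all genes compared. ECI1 (ENSG00000167969), an isomerase that moves the unsaturated bond of unsaturated fatty acids into place, had 97.2 and 125 CPM. Its log2 ratio was 0.36 (interval 0.29 to 0.45), the highest of the 31. ECI2 (ENSG00000198721), a second isomerase of this kind that is also found in peroxisomes, had 48.0 and 61.5 CPM, a log2 ratio of 0.35 (interval 0.25 to 0.47). The intervals of the isomerases overlap, and ECI1 stood at 2.02 and 2.04 times the level of ECI2. ECHS1 (ENSG00000127884), the hydratase for short chains, had 81.4 and 101.4 CPM, a log2 ratio of 0.31 (interval 0.23 to 0.40). HADH, the hydroxyacyl-CoA dehydrogenase for short chains, had 34.2 and 42.3 CPM, a log2 ratio of 0.30 (interval 0.18 to 0.44). These 4 genes stood above the others of the role, whose log2 ratios were at most 0.14. ACAA2, a thiolase, had 38.2 and 42.1 CPM, and DECR1, a reductase for polyunsaturated chains, had 113 and 122 CPM.

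HADHA (ENSG00000084754) and HADHB encode the alpha and beta subunits of the trifunctional protein, which carries out the later steps on long chains. HADHA had 218 CPM without and 224 CPM with M2BPGi (interval -0.02 to 0.09). HADHB had 37.4 and 38.2 CPM (interval -0.10 to 0.16). Both intervals held 0 in the values as deposited, and after rescaling the log2 ratio of HADHA was 0.09. Although their starts lie back to back and the subunits form a complex, HADHA stood at 5.83 times the level of HADHB in non-treated cells (interval 5.43 to 6.27) and at 5.85 times in M2BPGi-treated cells (interval 5.46 to 6.27). The level of HADHA was thus far above that of HADHB in both libraries.

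**Figure D3:**
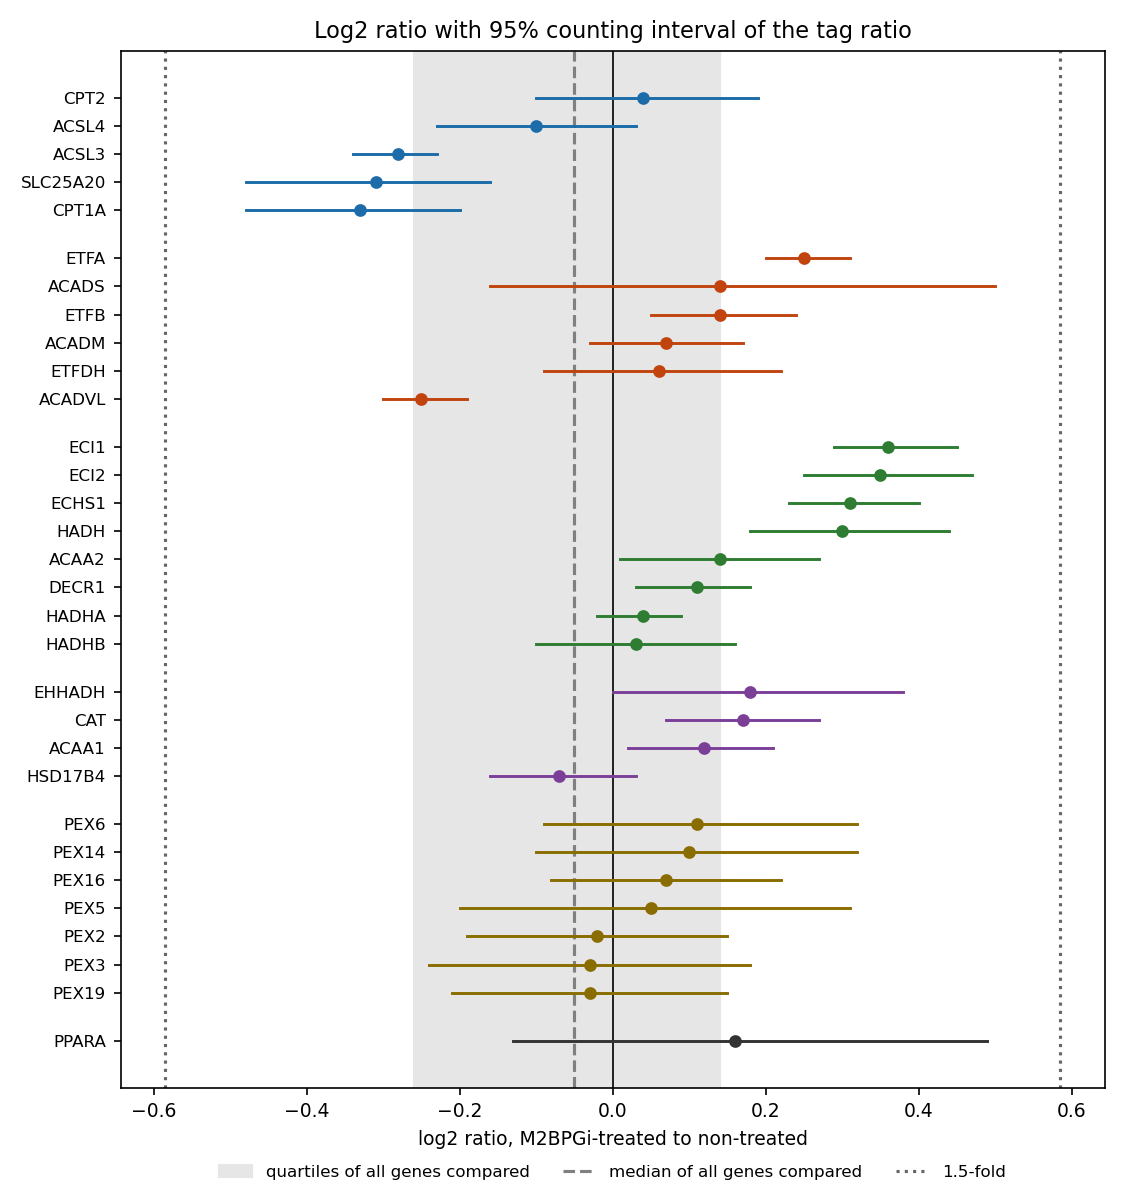
Log2 of treated over non-treated values for the 31 genes compared, grouped by role, with points after adding 1 CPM and bars as the 95% counting interval of the tag ratio. The grey band marks the quartiles of all genes compared, -0.26 and 0.14, the dashed line their median of -0.05 and the dotted lines 1.5-fold; ECI1 is highest with 0.36 and CPT1A lowest with -0.33.

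The peroxisomal enzymes had a median log2 ratio of 0.14 over 4 genes, 3 of them above 0, while 57.0% of all genes compared were below 0. ACAA1 (ENSG00000060971), the peroxisomal thiolase and by mean CPM the most abundant of them, had 72.9 CPM without and 79.1 CPM with M2BPGi, a log2 ratio of 0.12 (interval 0.02 to 0.21). CAT, the gene of catalase, had 59.98 and 67.5 CPM, a log2 ratio of 0.17 (interval 0.07 to 0.27). Peroxisomes hold separate bifunctional enzymes for the middle steps. EHHADH, which acts on straight chains, had 17.4 and 19.8 CPM, and HSD17B4, which also acts on branched chains, had 73.0 and 69.6 CPM. Both intervals held 0 in the values as deposited, so neither difference was detectable there. EHHADH had a log2 ratio of 0.18 with a lower limit of 0.00, and the ratio became 0.23 after rescaling. The thiolases ACAA1 and ACAA2 had a ratio of levels of 1.91 in non-treated and 1.88 in M2BPGi-treated cells.

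The 7 peroxins stayed closest to 0. Their log2 ratios ranged from -0.03 to 0.11 with a median of 0.05, and each of the 7 intervals held 0. PEX16 (ENSG00000121680), which with PEX3 and PEX19 builds the peroxisomal membrane, was the most abundant, with 28.3 and 29.7 CPM, a log2 ratio of 0.07 (interval -0.08 to 0.22). PEX19, a carrier of membrane proteins, had 21.3 and 20.9 CPM, and PEX3, its dock on the membrane, had 16.1 and 15.8 CPM. PEX5, the import receptor for matrix proteins, had 10.4 and 10.8 CPM, and PEX14, where that receptor docks, had 14.4 and 15.5 CPM. PEX2, a ubiquitin ligase that acts on the receptor, had 23.5 and 23.2 CPM, and PEX6, an ATPase that extracts the receptor from the membrane, had 15.5 and 16.7 CPM. Dock, receptor, ligase and membrane factors were thus within a narrow band of low to middle levels in both libraries, with 129 CPM without and 133 CPM with M2BPGi over the 7 genes.

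PPARA (ENSG00000186951) had 6.86 CPM without and 7.76 CPM with M2BPGi, a log2 ratio of 0.16 (interval -0.13 to 0.49). With 165 and 193 tags this difference was not detectable. PPARG, a related receptor better known from fat tissue, had a higher level than PPARA in this line, with 30.5 and 38.2 CPM (interval of its log2 ratio 0.19 to 0.47). PPARD, the remaining receptor of the family, had 16.7 and 14.4 CPM. PPARA therefore stood at 0.225 times the level of PPARG in non-treated and 0.203 times in M2BPGi-treated cells, the lowest of the family in both libraries.

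In GENCODE, 5 of the 32 genes have a protein-coding start on the opposite strand within 1000 bases, head to head. Apart from HADHA and HADHB, whose nearest annotated starts are 22 bases apart, these were ACADVL with DLG4, ETFDH with C4orf46 and PEX3 with ADAT2. DLG4 was near absent at 0.50 and 0.97 CPM beside the abundant ACADVL. C4orf46 had 5.53 and 5.91 CPM and has a near-identical copy, so its tags are uncertain, and ADAT2 had 10.8 and 10.8 CPM. The intervals of all these partners held 0.

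Lists of other genes in or near the pathway are given beside all genes compared, whose median was -0.05 with 57.0% below 0. The list names are headings only, and some of the listed genes act in other compartments or pathways. The 15 other mitochondrial beta-oxidation genes had a median log2 ratio of -0.05 with 10 below 0, and after rescaling the median was 0.01. The 21 other peroxisomal lipid and transporter genes had a median of -0.10 with 13 below 0, and the 8 other fatty acid uptake, activation and carnitine genes had -0.10 with 5 below 0. The 8 other peroxins had -0.11, which became 0.09 over the 4 with a mean of 10 CPM or more. For the 12 partners and coregulators of PPARA the median was -0.15, and for 7 of its target genes outside the list it was -0.16. The 4 ketone body genes had 0.19, and the 10 genes of malonyl-CoA and AMPK control, which set the activity of CPT1A, had -0.09. For comparison, 13 of 15 fatty acid synthesis and elongation genes were below 0, with a median of -0.27, and the 18 genes of the tricarboxylic acid cycle had a median of 0.11 with 12 above 0. The 8 listed genes of the later mitochondrial steps and the tricarboxylic acid cycle genes thus had medians above that of all genes compared. The list called other mitochondrial beta-oxidation genes had a median of -0.05, as all genes compared had, but it also holds genes of other pathways. Fatty acid activation, the shuttle and fatty acid synthesis had medians below that of all genes compared. Whether these lists differ from each other was not tested.

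**Figure D4:**
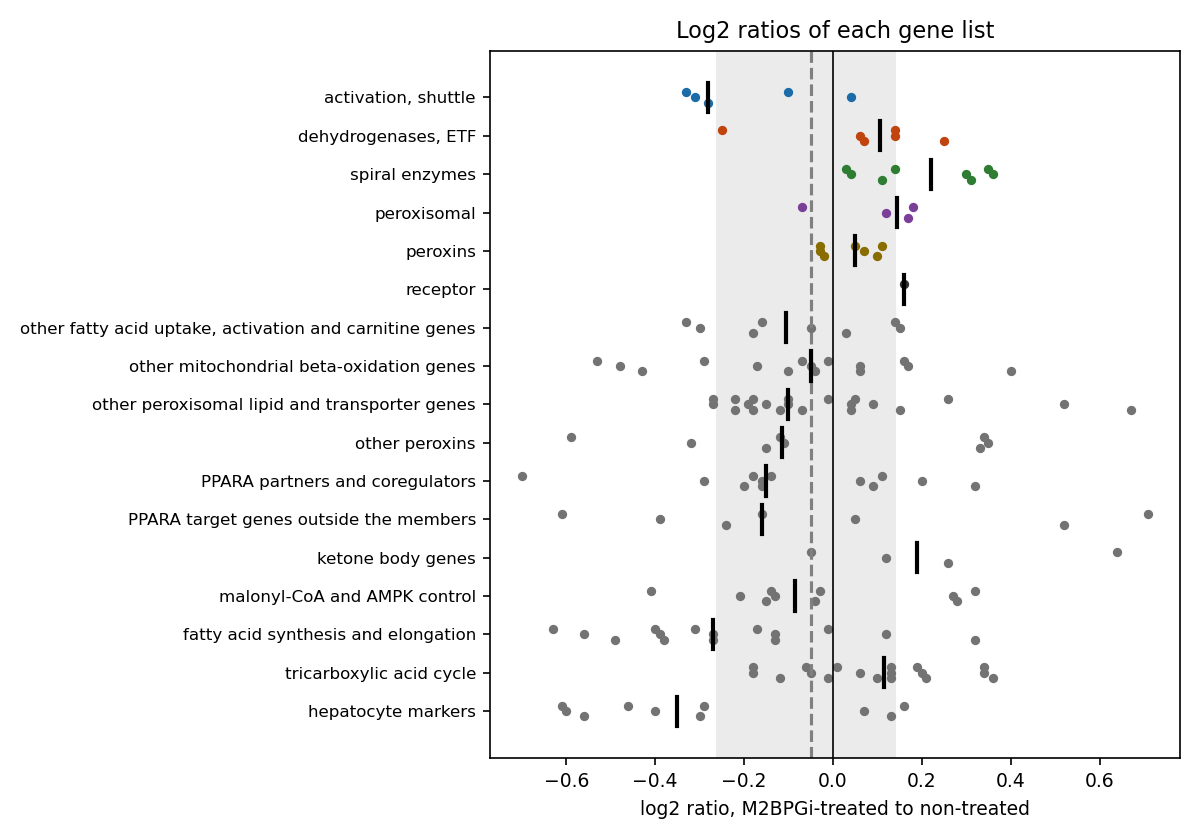
Log2 of treated over non-treated values of each gene (points) and the median (black bars) for the 6 roles and the lists with over 3 genes compared, with the quartiles (grey) and median (dashed) of all genes compared. The later mitochondrial steps have a median of 0.22 and the fatty acid synthesis genes of -0.27.

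Across all genes the log2 ratio went with transcript length, and the genes described here were set beside others of like length. Length was that of the longest GENCODE transcript of any type, which need not be the one expressed here. The lengths of single genes and roles are uncertain for this reason. A length was known for 32 of the 32 genes. Of the 9464 genes with a mean of 10 CPM or more, 97.4% had one. Over 9220 genes Spearman's rho was -0.26, and over 29 genes of the list it was -0.24, as a description across genes that share the same libraries. Among transcripts of at most 2503 nt, 10 genes of the list had a median log2 ratio of 0.10 and all 3075 genes had 0.08. Among those up to 4476 nt, 12 genes of the list had 0.06 and all 3073 genes had -0.04. Among longer ones, 7 genes of the list had -0.07 and all 3072 genes had -0.11. From short to long, 30%, 16.7% and 57.1% of the genes of the list were below 0, against 39.3%, 56% and 67.1% of all genes. The activation and shuttle genes had a median length of 4885 nt, the peroxisomal enzymes of 4285 nt, the peroxins of 3252 nt, the enzymes of the later steps of 2985 nt and the dehydrogenases and flavoprotein of 2485 nt. The order of these lengths, with ACSL1 included, was not the order of the medians of the roles, which leave ACSL1 out. Of the genes at the ends, ECI1 (1541 nt) and ECHS1 (1617 nt) were short and higher, and CPT1A (5232 nt) and ACSL3 (5679 nt) were long and lower. SLC25A20 was lower at 1879 nt, and ECI2 (3870 nt) and HADH (6541 nt) were higher. Whether the transcripts of these genes in the cells had such lengths is not known. The part of transcript length in these differences was not tested.

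**Figure D5:**
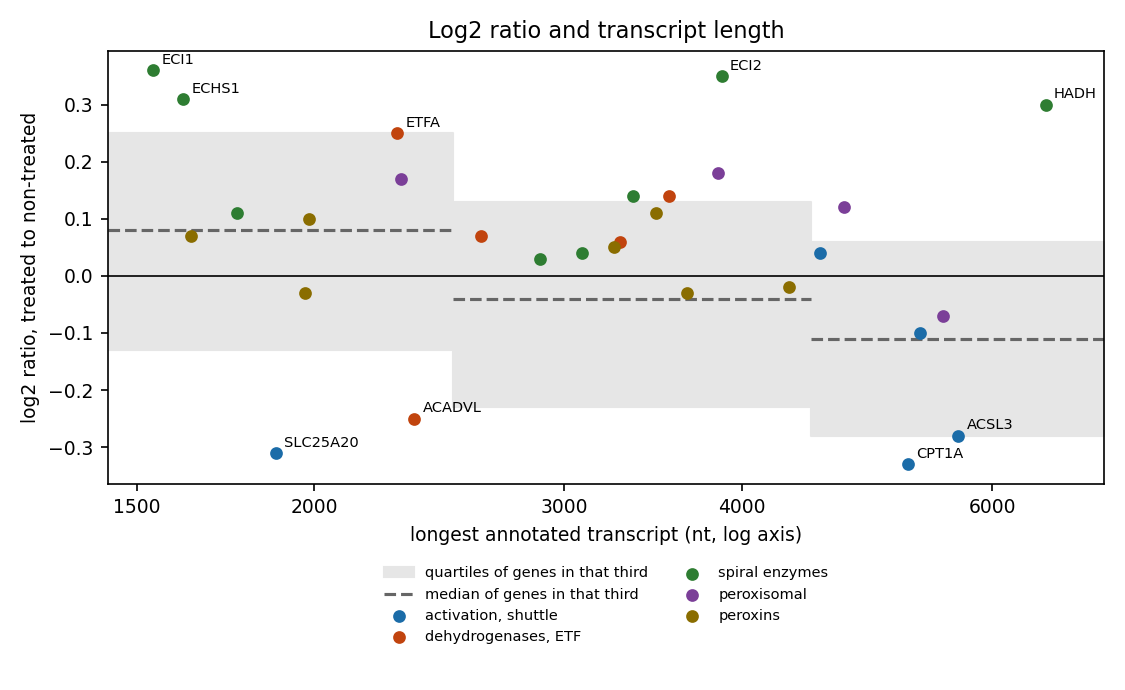
Log2 of treated over non-treated values against the longest annotated transcript (nt, log axis) for the 29 genes of the list with a mean of 10 CPM or more, coloured by role. Grey bands and dashed lines are the quartiles and medians of all genes in 3 length groups, with medians of 0.08, -0.04 and -0.11 from short to long.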

How the data were processed

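By the paper's methods, ribosomal reads and reads with letters other than A, C, G and T were removed, BWA was used for mapping to the mouse build mm9, and CAGEr grouped the 5′ coordinates. The submitters' processing notes name HISAT2 as well and the human build hg19, and the identifiers are human. The sources used here do not say how a tag was given to a gene or what was done with tags that map to several places. The authors deposited CPM with 2 decimals. Tag totals were found from the steps between values. At these totals 100% of the values above 0 are whole tags in each library, within a rounding of 0.005 CPM, which is up to 0.12 of a tag. A gene at 0 may still have a level up to 0.125 CPM (non-treated) or 0.121 CPM (treated), the value of 3 tags. The tags read back, the ratios, the intervals and the TMM factors were tried on simulated data. Near-identical copies were searched with BLAST+ 2.17.0, as the first 500 nt of the longest GENCODE 29 transcript aligned to another gene for 100 nt or more at 95% identity or more. Reference coordinates are those of GRCh38 and not of the mapping build. Python 3.11.15, scipy 1.17.1 and matplotlib 3.10.9 were used.

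The members and lists were chosen with earlier results of these data known, so no p-value is given. Genes named with full values are the 3 highest and 3 lowest log2 ratios of the list with a mean of 10 CPM or more, the most abundant gene of each of 6 roles, PPARA and CPT1A. Of each other list these are the highest, the lowest and the most abundant gene with a mean of 10 CPM or more. A gene picked in this way is not reported here. Head-to-head partners and pseudogenes named after a gene of the list were added. The order by length and other names were chosen after the values were seen. Alternatives were other pseudocounts, filters, scalings and fold sizes, and genes without near-identical copies.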

Additional observations from a re-analysis of the deposited data

How the results depend on the processing

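No paired analysis was possible because the libraries are single and have no partner, and neither can be omitted. The planned tests on tag numbers were not run. The deposited values are rounded CPM, and tags read back from them were used for counting intervals only. These intervals are not adjusted for the number of genes. The number of listed genes at least 1.5-fold higher or lower was 0 with pseudocounts of 0.1 and 5, a mean of 10 CPM or more, no filter, both scalings, without near-identical copies and at 2-fold, and became 2 and 1 at the size of 25% higher or 20% lower. The median of the listed genes stayed between 0.06 and 0.12 under every alternative run. ACSL1 was 109% higher in CPM (0.58 and 1.21), but without the filter the added 1 CPM was kept. Its log2 ratio was then 0.48, so it was not counted. A pseudocount of 0.1 without the filter was not run. Over all genes, 219 higher and 555 lower became 336 and 856 with a pseudocount of 0.1, 91 and 164 with 5, 135 and 223 with a mean of 10 CPM or more, 1240 and 2532 at the smaller size and 33 and 59 at 2-fold; a larger pseudocount shrinks low genes and a stricter filter compares fewer. Fatty acid synthesis and elongation genes moved from -0.27 to -0.21 after rescaling and -0.22 with TMM factors, because these scalings shift every ratio by about 0.05. Of 120 medians these 2 of the synthesis genes left the range of the median lower and upper interval limits of their list. Another 3 passed to 0 or beyond within that range. These were other peroxins (0.09 with a mean of 10 CPM or more) and the list called other mitochondrial beta-oxidation genes. The latter list had 0.01 after rescaling and 0.00 with TMM factors. Of 160 values of named genes 151 stayed within the counting interval, ACAT1 among them, which went from -0.05 to 0.01 after rescaling. PPARA alone made a list without a value at a mean of 10 CPM or more. Alternatives for hepatocyte markers and length groups were added after seeing the data. Depth limits the genes under 10 CPM most, and missing replicates limit every comparison.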

Other observations

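By log2 ratio, genes of the related lists held larger differences than the members that met the filter. On the list called other peroxisomal lipid and transporter genes, ACOX2 had 10.4 CPM without and 17.2 CPM with M2BPGi. ACOX2 is an oxidase of bile acid and branched-chain breakdown, and its log2 ratio was 0.67 (interval 0.49 to 0.95). ACOX2 was the only gene of that list at least 1.5-fold higher. ABCD4, a transporter that the list heading does not place in peroxisomes, had the lowest log2 ratio, with 12.4 and 10.1 CPM. AGPS, which makes ether lipids, was the most abundant with 145 and 149.5 CPM. Among other peroxins, PEX26, the anchor of PEX6 on the membrane, had 25 and 31.9 CPM (interval 0.19 to 0.50), while PEX11A, a factor of peroxisome division, had 15.2 and 11.95 CPM (interval -0.58 to -0.13).

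On the list called other mitochondrial beta-oxidation genes, whose heading does not place each gene, NUDT7 had the highest log2 ratio, with 9.03 and 12.3 CPM. PCCA, a subunit of propionyl-CoA carboxylase, was the lowest with 49.4 and 33.9 CPM, a log2 ratio of -0.53 (interval -0.67 to -0.42). Its partner subunit PCCB had 36.5 and 38.1 CPM (interval -0.07 to 0.20). HSD17B10 was the most abundant with 159 and 178.5 CPM. Of the uptake genes, SLC27A5 had 18.1 and 20.2 CPM, SLC27A4 had 33.6 and 27.0 CPM and SLC27A2 had 35.3 and 31.6 CPM.

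RXRB, a partner receptor of PPARA, was the lowest of the partners, with 16.5 CPM without and 9.81 CPM with M2BPGi, a log2 ratio of -0.70 (interval -0.99 to -0.52). RXRA, which can take the same place, had 15.9 and 17.3 CPM (interval -0.08 to 0.32). NCOR1, a corepressor, was the most abundant with 66.9 and 59.2 CPM and has near-identical copies, so its tags are uncertain. FABP1, the fatty acid binding protein of the liver, had 452 and 344 CPM, the lowest ratio of the PPARA targets with a mean of 10 CPM or more (interval -0.43 to -0.35). ACOT2, a mitochondrial thioesterase, was the highest by the same limit with 31.1 and 45.1 CPM and has a near-identical copy. ACAT1, a thiolase that also serves ketone body metabolism, had 146 and 141 CPM.

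On the side of synthesis, ACACA, which makes the malonyl-CoA that inhibits CPT1A, had 175 and 151 CPM and was not searched for copies (interval -0.28 to -0.15). PRKAG2, a subunit of AMPK, had 16.7 and 21.1 CPM. ELOVL1, an elongase, was the lowest of the synthesis list with 168 and 108 CPM (interval -0.70 to -0.56), ME1 the highest with 39.6 and 49.6 CPM, and SCD, a desaturase with a near-identical copy, the most abundant with 2282 and 1730 CPM. In the tricarboxylic acid cycle, SDHB had 98.5 and 127 CPM and SDHA had 272 and 241 CPM, so these subunits of succinate dehydrogenase differed in direction.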
